A study of Mus musculus with 24 samples.

Results

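The transcripts described here are those of the leukaemia inhibitory factor (LIF) receptor and STAT3 pathway in mouse embryonic stem cells with and without Smad2. The 10 genes were taken by their symbol from a list of the ligand (Lif), the receptor chains (Lifr and Il6st), the receptor kinases (Jak1 and Jak2), the transcription factor (Stat3), the phosphatase adaptor (Ptpn11), the feedback inhibitor (Socs3) and a pair of target kinases (Pim1 and Pim3). All 10 have a row in both of the authors' deposited results tables, which share 19134 genes. Each of the 10 lies at or above the minimum of 5 ppm (counts in each 1e6 of the summed mean counts) that was used as a filter on low values, Lif in paused cells by the least (5.20 ppm).

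LIF binds a receptor made of Lifr and the shared signalling chain of the interleukin-6 family, coded by Il6st. Kinases of the JAK family bound to the receptor tails then phosphorylate STAT3, which enters the nucleus and switches on, among others, Klf4, the Pim kinases and its own inhibitor Socs3. The pathway keeps embryonic stem cells self-renewing in serum cultures, and signalling through the shared chain is needed for the mouse epiblast to survive diapause, the dormancy that the paused state of cultured cells is modelled on.

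The study sequenced poly(A) RNA of E14 cells, a mouse embryonic stem cell line, in 24 libraries and 6 groups of 4. The genotypes were wild type (WT) and 2 Smad2 knockout lines (Smad2_KO1 and Smad2_KO2), and each was grown either in control medium or with the mTOR inhibitor INK128 at 200 nM for 12 h, the condition called paused. Smad2 encodes one of the SMAD proteins that Nodal and activin receptors activate. All 6 groups were grown on gelatin in 15% serum with 1000 U per mL of added LIF, so that every value below was measured with the ligand supplied by the medium. The labels do not say whether each knockout line is 1 clone, nor that replicates are separate cultures, in which case p-values measure the spread between these samples, which may be technical.

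The data are 2 tables of results, 1 for control and 1 for paused cells, which list for each gene a mean of normalized counts and a log2 fold change with its standard error (SE) and p. No value of a single library was used here, so levels by sample, the depth of each library, the overlap of groups and the knockout lines apart could not be shown. The numerator of the change is not named. Changes are read as knockout over wild type because the targeted Smad2 is then the lower in knockout cells, at 0.786 of the wild-type level in control cells (95% interval 0.714 to 0.865) and 0.646 in paused cells (0.598 to 0.698), computed from the authors' deposited tables; the opposite reading would turn each direction around. An adjusted p under 0.05 was given to 41.4% of all genes in control cells and to 42.6% in paused cells by the authors' deposited tables.

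The mean levels of the 10 transcripts spanned from the middle to the top of the range. Per length, in ppm per kilobase of annotated exons, Pim3 was the highest in the authors' deposited table of control cells at 64.2, followed by Socs3 (34.3) and Pim1 (30.7). Ptpn11 (15.9) and Stat3 (10.8) came next, and Jak1 (8.36), Lifr (8.32) and Il6st (7.91) lay close together. Lif (2.08) and Jak2 (1.68) were the lowest. These means pool all libraries behind a table and carry no error, so neighbours in this order cannot be told apart by a test.

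In the table of paused cells the order differed at several places. Pim3 (120 ppm per kilobase) and Pim1 (80.4) were again among the highest, with Socs3 next (31.3), and Lif was the lowest, now below Jak2 (2.64). As a share of the summed mean counts, Pim1 was 2.62 times as high in the paused as in the control table (270 against 103 ppm) and Pim3 1.86 times (290 against 156 ppm). For comparison, the middle 90% of the 10958 genes with at least 5 ppm on average had ratios between 0.546 and 2.00. Jak2 (1.57) and Il6st (1.42) were also higher, Lifr, Jak1 and Stat3 lay between 1.12 and 1.21, Ptpn11 (0.974) and Socs3 (0.911) near 1, and Lif at 0.574. These ratios mix wild-type and knockout libraries and compare tables that were normalized separately, so they are given as a description with no test.

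**Figure D1:**
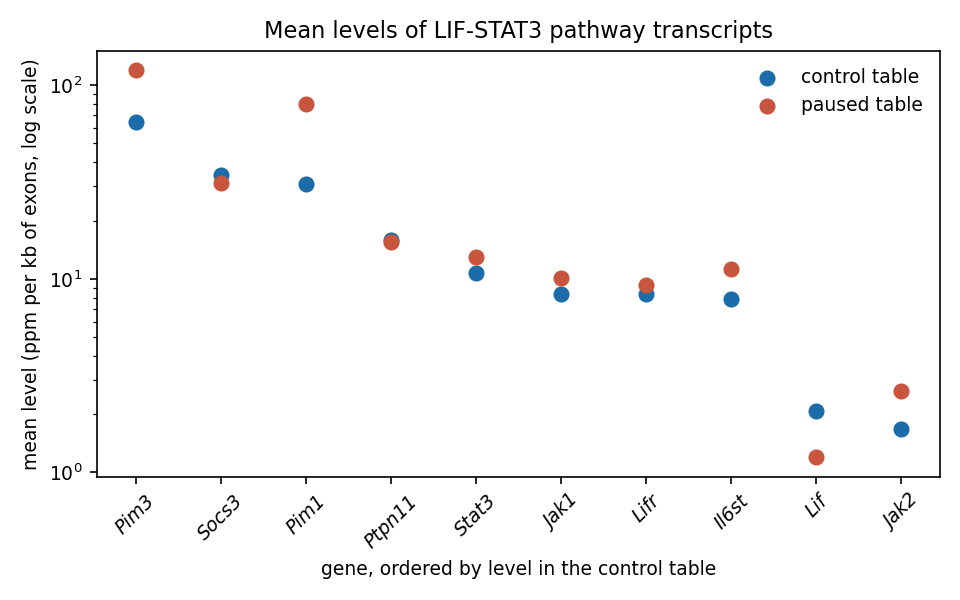
Mean level of each of the 10 transcripts in ppm per kilobase of exons (log scale) in the authors' deposited tables for control (blue) and paused (red) cells, each point 1 pooled mean with no error. Pim3, Pim1 and Socs3 are the highest in both tables, and the largest upward gap from control to paused is that of Pim1.

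The changes of these transcripts with Smad2 loss were small, and Pim1, Pim3 and Ptpn11 (lower) and Lifr and Jak1 (higher) were the ones called in both conditions. In the authors' deposited table of control cells 5 of the 10 passed an adjusted p of 0.05 (50% of the genes with at least 5 ppm did), 2 of them higher and 3 lower in the knockout, where 19.5% of all genes were called higher and 21.9% lower, or 18.4% and 31.6% of those with at least 5 ppm. In the authors' deposited table of paused cells the count was 6 of 10 (51.6% of the genes with at least 5 ppm), 2 higher and 4 lower, where 20.5% of all genes were called higher and 22% lower, or 19.7% and 31.9% of those with at least 5 ppm. The counts are near the shares of genes at such levels, where lower calls also outnumbered higher ones. With changes shifted to equal summed counts of both genotypes, 4 members were called in each table, 2 in each direction. Of all genes, 39.7% in control and 41.1% in paused cells were called with that shift. The share of calls that were higher over all genes went from 47.1% to 58.8% in control cells and from 48.2% to 56.1% in paused cells. In a test against a change of up to 1.2-fold Pim1 in control cells kept its call and no other member did. Of all genes, 12.2% in control and 12.1% in paused cells were called by that test. After division of each statistic by the middle spread of all genes 0 members were called in either table. The shares of all genes were then 1.48% in control and 2.25% in paused cells.

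None of the 10 was called with a change of 1.5-fold or more in either of the authors' deposited tables, where 15% of all genes in control cells and 14.7% in paused cells were, or 7.41% and 7.01% of those with at least 5 ppm. The largest change among the 10 was 1.44-fold in control and 1.29-fold in paused cells. The median size of change over the 10 was 0.20 in control and 0.13 in paused cells on the log2 scale, beside 0.15 and 0.13 over genes with at least 5 ppm. Lifr, Jak1, Pim1, Pim3 and Ptpn11 were called in both tables in the same direction, 5 of 10, where 30.3% of the genes in both tables were, or 36.5% of those with at least 5 ppm on average. The count went to 3 with either shift of the scale (Lifr, Jak1 and Pim1), to 2 at an adjusted p under 0.01 (Lifr and Pim1), and to 0 with the test against 1.2-fold and with the scaled statistic. No share of all genes called in both is given for these settings, so the lower counts are no result about the members.

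**Figure D2:**
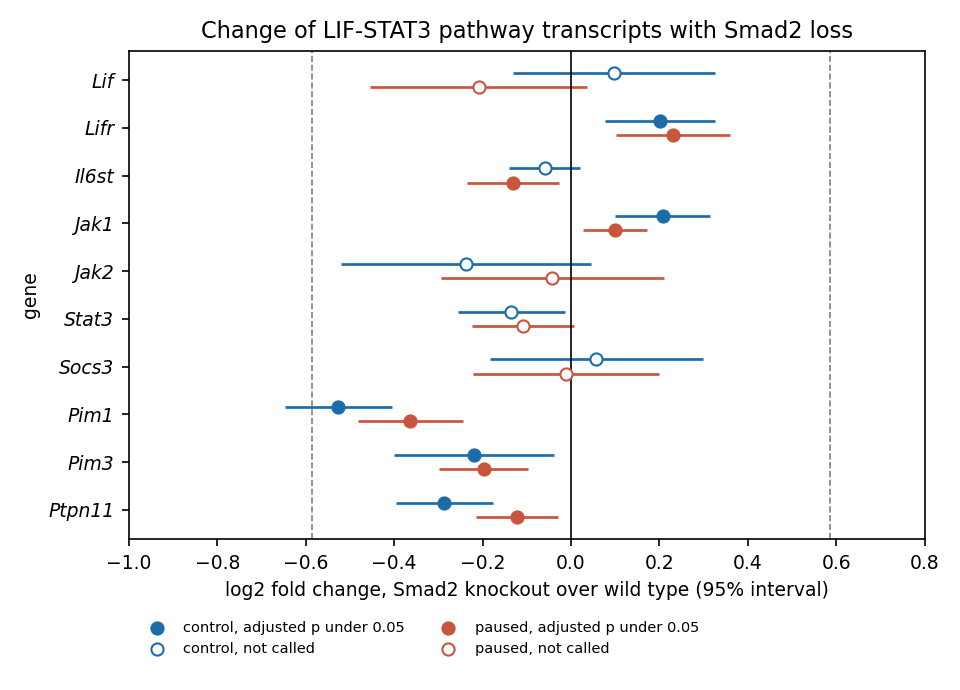
Log2 fold change of the 10 transcripts, Smad2 knockout over wild type, in control (blue) and paused (red) cells with 95% intervals from the authors' standard errors; filled points have an adjusted p under 0.05 and dashed lines mark 1.5-fold. Pim1 lies farthest from 0 in both conditions, and no point lies beyond the dashed lines.

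The ligand was among the lowest of the 10 and its change was not called. Lif (chr11:4257557-4272514, plus strand, mm10) averaged 418 normalized counts in the authors' deposited table of control cells, and its change was 0.10 (SE 0.12, adjusted p 0.534). In paused cells its mean in the authors' deposited table was 230, with a change of -0.21 (SE 0.13, adjusted p 0.174). The intervals run from 0.914 to 1.25 of the wild-type level in control cells and from 0.730 to 1.03 in paused cells. The difference between conditions, -0.31 (SE 0.17), was the largest in size among the 10 and did not pass the test over all genes (adjusted p 0.455).

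Of the receptor chains, Lifr was called in both conditions and Il6st in paused cells. Lifr (chr15:7090614-7197489, plus strand), which codes for the chain that gives the receptor its specificity, rose by 0.20 in the authors' deposited table of control cells (SE 0.06, adjusted p 0.00581), to 1.15 times the wild-type level. It rose by 0.23 in the authors' deposited table of paused cells (SE 0.07, adjusted p 0.00176), to 1.17 times. Il6st (chr13:112464070-112510086, plus strand), the signal-transducing partner, had a value of -0.06 in the authors' deposited table of control cells (SE 0.04, adjusted p 0.248). The authors' deposited table of paused cells has it lower by 0.13, which was called (SE 0.05, adjusted p 0.0344), to 0.913 of the wild-type level, and this call was lost with either shift of the scale. For neither chain did the test of the difference between conditions pass (adjusted p 0.946 and 0.734).

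Among the receptor kinases Jak1 (chr4:101152367-101265282, minus strand), the JAK that receptors of this family chiefly rely on, rose in both conditions. Its change was 0.21 in the authors' deposited table of control cells (SE 0.05, adjusted p 7.03e-04) and 0.10 in that of paused cells (SE 0.04, adjusted p 0.0208). These correspond to 1.15 and 1.07 times the wild-type level. Jak2 (chr19:29251828-29313080, plus strand), the lowest of the 10 per length in control cells, was not called in either of the authors' deposited tables, with changes of -0.24 (SE 0.14, adjusted p 0.184) in control and -0.04 (SE 0.13, adjusted p 0.824) in paused cells. Its intervals are wide, from 0.697 to 1.03 and from 0.816 to 1.16 of the wild-type level.

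Stat3 itself (chr11:100885098-100939540, minus strand) lay slightly below the wild type without a call. The authors' deposited tables give -0.14 in control cells (SE 0.06, adjusted p 0.0642) and -0.11 in paused cells (SE 0.06, adjusted p 0.126), with means of 4722 and 5464 normalized counts. The intervals run from 0.837 to 0.990 and from 0.856 to 1.00 of the wild-type level. Annotated exons of Stat3 and Stat5a overlap on opposite strands by 72 bases, 0.756% of the annotated Stat3 exons, and whether reads were counted by strand is not given in the sources used here. These are transcript levels, and phosphorylation of the protein, which carries the signal, was not measured.

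Ptpn11 (chr5:121130533-121191397, minus strand) codes for SHP2, a phosphatase recruited to the shared receptor chain that links it to the RAS and ERK route. The fall was 0.29 in the authors' deposited table of control cells (SE 0.06, adjusted p 2.72e-06), to 0.820 of the wild-type level. The authors' deposited table of paused cells has a fall of 0.12 (SE 0.05, adjusted p 0.0272), to 0.919. The difference between the conditions was 0.16 (95% interval 0.02 to 0.31), the only one among the 10 with an unadjusted p under 0.05 (0.0246), and it did not pass when adjusted over all genes (adjusted p 0.293). The call in paused cells was lost with either shift of the scale.

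The feedback inhibitor and the target kinases are known targets of STAT3 in embryonic stem cells. Both target kinases were called lower, and the inhibitor was not called. Socs3 (chr11:117966079-117970047, minus strand), whose protein binds the receptor and blocks the kinases, was not called in either of the authors' deposited tables. Its change was 0.06 in control (SE 0.12, adjusted p 0.747) and -0.01 in paused cells (SE 0.11, adjusted p 0.945), and the sign in paused cells turned positive with either shift of the scale. Its means were 4566 and 4003 normalized counts in the authors' deposited tables. The intervals run from 0.881 to 1.23 and from 0.858 to 1.15 of the wild-type level.

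Pim1 (chr17:29490753-29496112, plus strand), a serine and threonine kinase that promotes survival, had the steepest fall of the 10. Its mean was 4757 normalized counts in the authors' deposited table of control cells, where it fell by 0.53 (SE 0.06, adjusted p 8.42e-16), or to 0.695 of wild type with an interval of 0.639 to 0.755. In the authors' deposited table of paused cells with a mean of 11970, it fell by 0.36 (SE 0.06, adjusted p 2.22e-08), or to 0.777 with an interval of 0.716 to 0.844. The difference of 0.16 (SE 0.09) did not pass the test (adjusted p 0.419). Annotated exons of Gm26885 on the opposite strand cover 14.5% of the Pim1 exons, and without counting by strand reads there could not be told apart.

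Pim3 (chr15:88862186-88865726, plus strand), a close relative with overlapping functions, also fell, by less. The authors' deposited table of control cells gives -0.22 (SE 0.09, adjusted p 0.0421, mean 7178 normalized counts), a call lost with either shift of the scale. In the authors' deposited table of paused cells with a mean of 12865, the fall was 0.20 (SE 0.05, adjusted p 5.32e-04), or to 0.872 of wild type. The remaining family member, Pim2, which was counted in the list of STAT3 response genes, fell further, by 1.07 in the authors' deposited tables for control (SE 0.14) and for paused cells (SE 0.17).

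Sequences from RefSeq promoter windows on GRCm38.p6 are shown for the readouts that fell (Pim1 and Pim3) and for Socs3, which was not called. Icam1, a STAT3 response gene that rose, is shown too. The letters TTCNNNGAA, to which dimers of STAT proteins bind, are in capitals. The motif reads the same on both strands. Each run ends just before the RefSeq start, less 32 bases of Pim1 and 8 of Pim3 that GENCODE annotates as untranslated region and that are not shown. The positions are chr17:29490535-29490752 (plus strand), chr15:88861944-88862185 (plus strand), chr11:117969367-117969616 (minus strand) and chr9:21015840-21015939 (plus strand). Pim1 has 2 windows in RefSeq, of which the one nearest to its GENCODE start is shown. The run of Socs3 lies wholly within the span of its gene, because the GENCODE gene begins 681 bases upstream of the RefSeq start. Sequence before that GENCODE start was not searched.
Pim1: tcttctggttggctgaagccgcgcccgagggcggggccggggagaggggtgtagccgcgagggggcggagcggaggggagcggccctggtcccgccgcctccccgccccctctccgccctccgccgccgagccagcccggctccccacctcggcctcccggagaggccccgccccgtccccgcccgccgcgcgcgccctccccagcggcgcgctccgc
Pim3: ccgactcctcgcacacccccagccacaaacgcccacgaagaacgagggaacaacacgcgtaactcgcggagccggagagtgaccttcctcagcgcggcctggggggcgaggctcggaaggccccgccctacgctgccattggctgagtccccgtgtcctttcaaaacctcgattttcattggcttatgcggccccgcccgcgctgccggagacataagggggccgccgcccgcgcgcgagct
Socs3: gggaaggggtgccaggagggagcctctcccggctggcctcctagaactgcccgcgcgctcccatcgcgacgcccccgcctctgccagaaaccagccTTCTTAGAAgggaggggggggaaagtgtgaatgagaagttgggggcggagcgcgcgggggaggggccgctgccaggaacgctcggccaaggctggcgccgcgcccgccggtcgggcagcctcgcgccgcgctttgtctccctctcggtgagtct
Icam1: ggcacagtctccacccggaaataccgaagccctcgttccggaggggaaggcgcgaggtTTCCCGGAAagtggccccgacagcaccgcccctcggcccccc

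Of the 10 genes, Socs3 alone held TTCNNNGAA in a window from 250 bases before to 50 bases after its RefSeq start (12 windows for the 10 genes), and its match, TTCTTAGAA, begins 154 bases before the RefSeq start. The GENCODE gene begins 681 bases upstream of that start, so the match lies within the span of the gene given above. The same letters occur in 8.30% of all 32851 RefSeq windows of that length, and 9.55% of the genes with windows have a match in at least 1. Among the STAT3 response genes 14 had windows (22 in all, 4 with a match), and 3 of the genes (Icam1, Sbno2 and Sgk1) held a match; that of Icam1, TTCCCGGAA, begins 42 bases before the RefSeq start. In the authors' deposited tables Icam1 rose in both conditions, Sgk1 fell in both (by 0.23 in each, adjusted p 6.17e-05 in control and 4.19e-04 in paused cells), and Sbno2 was not called (-0.04 in each). The SMAD palindrome GTCTAGAC was found in 0 of the 10 genes and in 0.213% of all windows. The printed run of Pim1 is 83.0% G and C, that of Socs3 71.6% and that of Pim3 67.4%. A match is a description of the letters, and the absence of one says only that they are not in this window.

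Whether the knockout change depended on pausing was tested for every gene, subtracting the control from the paused change. None of the 10 passed (0 of 10 at an adjusted p under 0.05, 1 at an unadjusted p under 0.05), where 1.44% of the 19134 genes passed with adjustment and 12.9% without. The differences ran from -0.31 for Lif to 0.20 for Jak2, with SEs of 0.07 to 0.19. The narrowest interval was that of Jak1, from -0.24 to 0.02, and the widest that of Jak2, from -0.18 to 0.57.

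**Figure D3:**
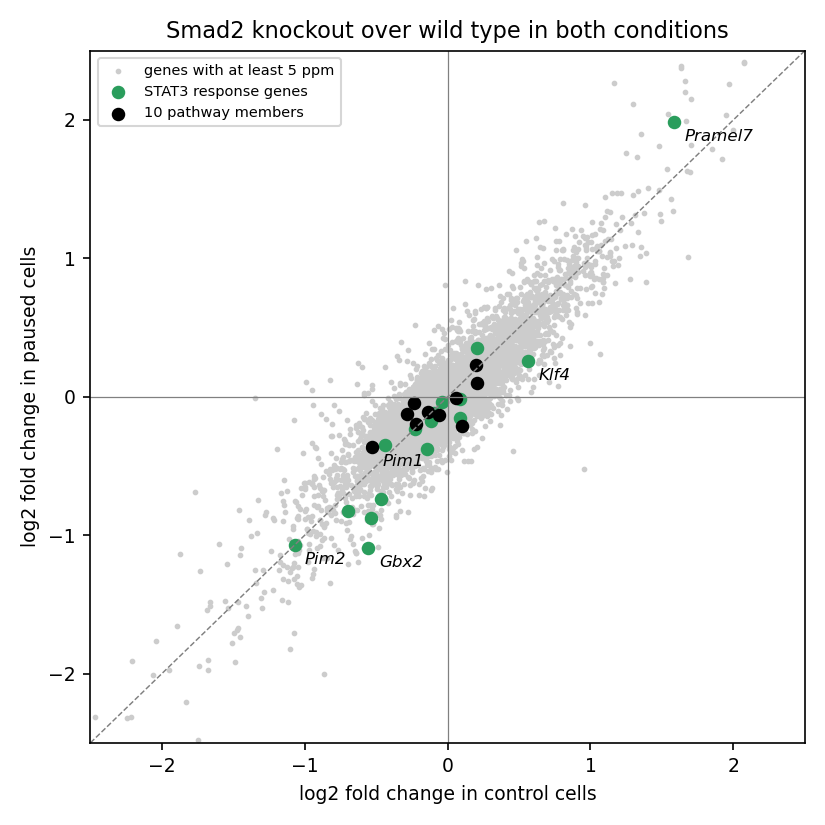
Log2 fold change with Smad2 loss in control (x) against paused cells (y) for the 10 transcripts (black), the STAT3 response genes (green) and the genes with at least 5 ppm (grey; 18 of 10958 lie outside the axes), with the line of equal change dashed. The 10 lie close to the origin, whereas Pramel7 lies far to the upper right and Pim2 to the lower left.

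The other genes around the receptor were counted from lists of the IL-6 family and the JAK-STAT pathway. The counts in these lists stand beside 41.4% of all genes called in control and 42.6% in paused cells, or 50% and 51.6% of those with at least 5 ppm, and no excess over these shares was tested. Of 9 further ligands and ligand partners, 7 had rows; 2 were called higher and 2 lower in the authors' deposited table of control cells, and 1 higher and 2 lower in that of paused cells. Osm, coding for oncostatin M, rose in the authors' deposited table of control cells by 0.67 (SE 0.17, adjusted p 3.36e-04) at a mean of 60.0 normalized counts, and 0.56 in paused cells did not pass. Ctf2, a cardiotrophin gene, rose in both of the authors' deposited tables (0.69 and 1.17) from means of 36.7 and 18.8 normalized counts. Il11 fell in control cells (-1.11) and stood at -0.33, not called, in paused cells by the authors' deposited tables, from means of 20.6 and 19.4. Il6 and Il27 have no row in either table.

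Of the 7 other receptor chains, 1 was called higher and 2 lower in the authors' deposited table of control cells, and 2 higher and 2 lower in that of paused cells. Cntfr, the binding chain for ciliary neurotrophic factor, which signals through Lifr and Il6st, fell by 0.94 (SE 0.26, adjusted p 0.00145) and 0.97 (SE 0.25, adjusted p 4.78e-04) in the authors' deposited tables. Osmr, which pairs with Il6st to bind oncostatin M, fell by 1.02 and 0.71 in the authors' deposited tables, from means of 10.1 and 19.6 normalized counts.

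The 8 further JAK kinases and STAT factors gave 3 higher and 1 lower in the authors' deposited table of control cells, and 3 of each in that of paused cells. Stat5a was the one called at 1.5-fold or more, in control cells, with rises of 0.64 (SE 0.12, adjusted p 5.55e-07) in control and 0.27 (SE 0.09, adjusted p 0.00894) in paused cells of the authors' deposited tables. The JAK-STAT inhibitors other than Socs3 numbered 14, of which 3 were called higher and 5 lower in the authors' deposited table of control cells, and 2 higher and 6 lower in that of paused cells. Socs5, which codes for a suppressor of cytokine signalling, fell by 0.79 (SE 0.12, adjusted p 4.54e-09) and 0.51 (SE 0.10, adjusted p 1.92e-06) in the authors' deposited tables. Of the 10 adaptors and PI3K genes, 1 was called higher and 3 lower in each of the authors' deposited tables, 0 of them at 1.5-fold or more. All 10 lay above 5 ppm, where 7.41% of genes in control and 7.01% in paused cells were called at 1.5-fold or more.

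STAT3 response genes other than the members moved in both directions. Of the 16 listed, 3 were called higher and 7 lower in the authors' deposited table of control cells, and 3 higher and 9 lower in that of paused cells, with medians of -0.13 and -0.21. All but Ier3 and Rgs16 in paused cells lay at or above 5 ppm, and the genes at that level had medians of -0.05 in both tables and were called lower more often than higher, as given above. Pramel7, a gene of naive embryonic stem cells, rose by 1.59 (SE 0.16, adjusted p 1.29e-20) and 1.99 (SE 0.14, adjusted p 3.74e-41) in the authors' deposited tables; it belongs to a family of similar copies, and how reads shared with them were counted is not given in the sources used here. Gbx2, a homeobox gene that LIF and STAT3 induce, fell by 0.55 (SE 0.13, adjusted p 9.91e-05) and 1.09 (SE 0.21, adjusted p 1.97e-06) in the authors' deposited tables. The survival gene Ier3 (-0.54 and -0.87) and Rgs16 (-0.70 and -0.83), a brake on G protein signals, also fell in both of the authors' deposited tables. Icam1, chosen for its promoter after its values were seen, rose by 0.20 and 0.35 in the authors' deposited tables.

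**Figure D4:**
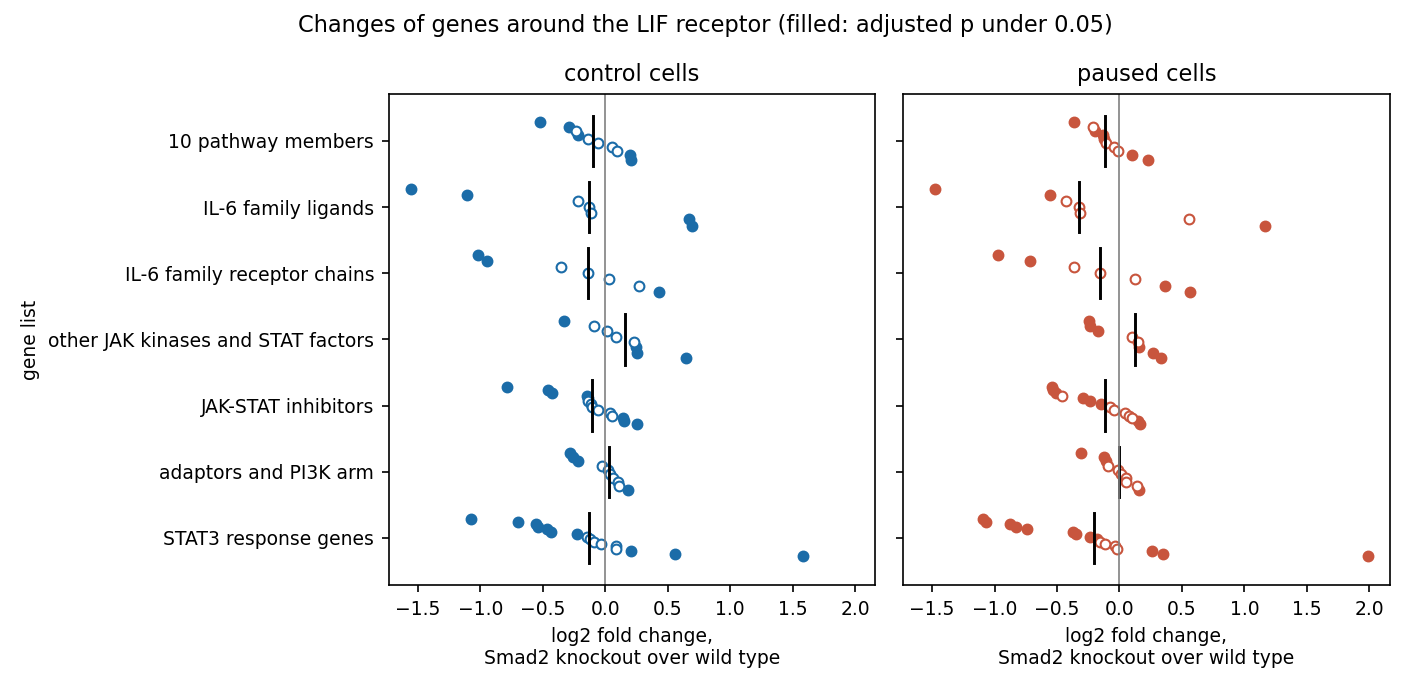
Log2 fold change with Smad2 loss of the 10 pathway members and of 6 lists around them in control (left) and paused cells (right); each point is 1 gene, filled where its adjusted p is under 0.05, and black bars are medians. The members and the adaptors lie close to 0, and the ligands, receptor chains and STAT3 response genes spread further to both sides. Most ligands and receptor chains lay below 5 ppm in both tables, and all members and adaptors at or above it. In control cells 15% of all genes were called at 1.5-fold or more, and 7.41% of those with at least 5 ppm. The part of level in the spread was not tested.

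Markers of the labelled cell type and of others were read from the same tables. Their counts stand beside 19.5% of all genes called higher and 21.9% called lower in control cells. In paused cells these shares were 20.5% and 22%, and no excess over them was tested. All 8 embryonic stem cell markers had rows, with summed mean counts of 226368 in the control and 186355 in the paused table and changes between -0.39 (Dppa5a, not called) and 0.50 (Fgf4) in the authors' deposited tables. Nanog and Fgf4 were called higher and Utf1 lower in both, and Pou5f1 lower in control cells. Primitive endoderm markers were called higher in the knockout for 7 of 7 genes in both of the authors' deposited tables, with summed means of 1131 and 1903 normalized counts, none of them at 0. Trophoblast markers were called higher for 3 of 6 (Gata3, Krt7 and Ascl2) and lower for 1 (Cdx2) in both, with summed means of 7207 and 7625 normalized counts, most of them from Tfap2c (5071 and 5499), which was not called. Of the 6 fibroblast markers Lum has no row, and 3, all collagens, were called lower in both, with summed means of 814 and 797. These moved in the same comparisons as the values of Lifr, Jak1 and the Pim genes, and their part in those values was not tested. In bulk RNA, fewer cells of a type and less RNA per cell cannot be told apart.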

How the data were processed

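RNA of 24 libraries (6 groups of 4, grouped by title) was measured by the authors. The submitters' processing notes name FastQC, Trim Galore, HISAT2, featureCounts, DESeq2 and the build mm10; versions and use of strand are not given in the sources used here. Per the file headers, each deposited table holds the results of a DESeq2 comparison: a mean of normalized counts (a signal that the authors averaged over libraries), a log2 ratio with its standard error, the statistic (a score) and its p-value and adjusted p-value. Which knockout libraries entered is not stated, and depth per library is unknown.

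The authors' tests were taken unaltered; changes over standard errors gave the statistic, and adjusted values were recomputed over all genes to within 1 percent. From them were computed 95% normal intervals, and the difference between conditions as the change in paused minus control cells divided by its standard error (both errors squared, added and rooted); its p is normal and two-sided and was adjusted over 19134 genes by Benjamini and Hochberg. Levels are ppm of the summed mean counts, per kilobase of the GENCODE M21 exon union. Promoter windows are RefSeq's. The tools were pandas 2.3.3, scipy 1.17.1 and numpy 2.4.6 in Python 3.11.15.

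Named genes were the 10 members, Smad2, and per list up to 5 genes called at 1.5-fold or more in either table, except 1 gene that is not reported here. Members and lists were chosen with earlier results of these data known. Alternatives were a threshold of 0.01, a test against 1.2-fold, both scale shifts, scaled statistics, the abundance minimum, 1.5-fold, transcript length and a stricter motif.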

Additional observations from a re-analysis of the deposited data

Results flagged for a closer look

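No value of the 10 members met a criterion for a closer look. In the wider lists the test of the difference between conditions passed for Klf4 and Cubn. Klf4 is a naive pluripotency factor that STAT3 induces, and Cubn a primitive endoderm marker. They were 1 of 16 STAT3 response genes and 1 of 7 primitive endoderm markers, and no gene of the other lists passed. Over all genes 1.44% (275 of 19134) passed, and no excess over that share was tested. Klf4, named after its values were seen, rose in both of the authors' deposited tables, by 0.56 in control (SE 0.06) and 0.26 in paused cells (SE 0.06), and the change in paused minus control cells was -0.30 (SE 0.08, adjusted p 0.0264). For Cubn the authors' deposited tables give 1.16 in control (SE 0.15) and 2.20 in paused cells (SE 0.22), a difference of 1.04 (SE 0.27, adjusted p 0.0144).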

How the results depend on the processing

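Of 200 values of the 10 genes under the alternatives, 155 kept their direction and their side of the threshold, 42 kept their direction and lost the call, and 3 turned their sign. Those 3 were uncalled values near 0 in paused cells: Socs3 at 0.018 with equal summed counts and 0.036 with a median change of 0, and Jak2 at 0.0049 with a median change of 0. The shifts added 0.05 in control and 0.03 or 0.05 in paused cells on the log2 scale.

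The number of members called in control cells (5) went to 1 when changes up to 1.2-fold counted as none (Pim1). It went to 0 with statistics scaled to the middle spread and with 1.5-fold required. The shares of all genes in control cells under these settings were, in the same order, 12.2%, 1.48% and 15%. In paused cells (6) the number of members called went to 3 at an adjusted p under 0.01 (Lifr, Pim1 and Pim3). It went to 0 with changes up to 1.2-fold as none, with scaled statistics and with 1.5-fold required. The shares of all genes in paused cells under these settings were, in the same order, 32.3%, 12.1%, 2.25% and 14.7%. Scaling divides the statistic by 2.76 in control and 2.80 in paused cells and left 293 and 450 genes in all; it treats the middle of all genes as unchanged, which was not tested. Under the remaining settings of either table the count was 4 to 6. For the difference the count was 0 under all 6 alternatives. With TTCCNGGAA in place of the looser motif, 0 members held a match, where 1.35% of all genes with windows and 1.15% of all windows did. With the longest transcript as length, Pim3 and the lowest gene kept their ranks. No paired analysis was possible because the tables hold no values per library, and for the same reason leaving out a replicate was not run.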
